A study of Mus musculus with 310 samples.

Results

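The nuclear genes of the mitochondrial respiratory chain were taken as all symbols of the count table that begin with Nduf, Sdh, Uqcr or Atp5, or with Cox followed by 4, 5, 6, 7 or 8. This gave 92 of 14068 genes, with 1 pseudogene left out. By their known roles, 80 encode subunits (37 of complex I, 4 of complex II, 8 of complex III, 13 of complex IV and 18 of complex V) and 12 encode assembly factors of complexes I and II. They were measured in 310 samples labelled as single epidermal cells from the tail skin of mice of a mixed CBA C57BL/6 strain that carried an Lrig1-EGFP-ires-CreERT2 allele with a Rosa26-fl/STOP/fl-tdTomato reporter. Lrig1 marks stem cells of the hair follicle's junctional zone, and 1 topical dose of hydroxytamoxifen switched on tdTomato in these cells and their descendants, so every cell of both groups carries the same alleles and had the same label induced. The groups were 38w (145 cells) and 38wUW (165 cells), whose names are the time given in the labels. What that time is counted from and the age of the mice are not in the labels. Of the samples, 2 have the suffix MBULK in their names (1 on C119 and 1 on C129) and may not be single cells. The labels leave UW unexplained and name no group as the wounded one, so every difference is given only as 38w against 38wUW. The replicates were RepI and RepL in 38w and RepM and RepN in 38wUW, and the labels do not say how many mice stand behind each.

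The respiratory chain moves electrons from NADH through complex I, or from succinate through complex II, to ubiquinone, then through complex III and cytochrome c to complex IV, where oxygen is reduced. Complexes I, III and IV pump protons out of the matrix, and complex V lets them back in to make ATP. Most subunits are encoded in the nucleus and a small core by mitochondrial DNA, so both genomes must be expressed to build every complex except complex II. Epidermal keratinocytes also make ATP by glycolysis.

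RepI lay on plates C114 (53 cells) and C118 (17 cells), RepL on C119 (75), RepM on C128 (82) and RepN on C129 (83). Reads per plate ranged from 1719788 to 12946742 and reads per cell from 11711 to 721564 (median 61294). Plate C114 stood apart before any comparison was made. Cytosolic ribosomal protein genes took 29.1% of its reads, against 4.12% to 6.8% on the other plates, and the 13 mitochondrially encoded genes took 7.47%, against 16.5% to 30.1%. Levels are given as CPM, the counts of a gene scaled to the same total in every library, so a gene's CPM also moves with what the other genes take. The labelled cell type was checked against marker genes. The 12 keratinocyte markers summed to between 17805 CPM (C129) and 44352 CPM (C114). Among other cell types, the immune markers found in the table (Ptprc and Lyz2) summed to 0 to 7.56 CPM, those of melanocytes to 10.5 to 25.9 CPM, of fibroblasts to 4.07 to 75.3 CPM, of skeletal muscle to 0 to 16.0 CPM and of adipocytes to 0 to 2.24 CPM. Of the endothelial markers, Kdr lay between 0 and 0.581 CPM, while Pecam1 lay between 1168 and 8773 CPM and was read in every cell.

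The summed level of the nuclear subunits was highest on plate C114 for complexes I, III, IV and V, and the rest of RepI, on C118, was above both plates of the other group in all 5 complexes, at 1.21 to 1.41 times their mean. The 37 subunits of complex I summed to 6114 CPM on C114 and 3652 CPM on C118 (5678 CPM in RepI as a whole), 2381 CPM in RepL, 2593 CPM in RepM and 3194 CPM in RepN. Those of complex III summed to 2541 CPM on C114 and 941 CPM on C118, and to 658, 762 and 801 CPM in RepL, RepM and RepN. Those of complex IV summed to 5231 CPM on C114 and 2275 CPM on C118, and to 1412, 1675 and 1849 CPM in RepL, RepM and RepN. In each of these complexes RepI was above both 38wUW replicates and RepL below both, so the 38w replicates lay on either side of the other group. Complex V had 6642 CPM on C114 and 4767 CPM on C118, and 3697, 3406 and 4501 CPM in RepL, RepM and RepN. Complex II, which oxidises succinate and has no subunit from mitochondrial DNA, was the only complex not higher on C114 than on C118: its 4 subunits summed to 454 CPM on C114, 481 CPM on C118, and 297, 294 and 389 CPM in RepL, RepM and RepN.

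**Figure D1:**
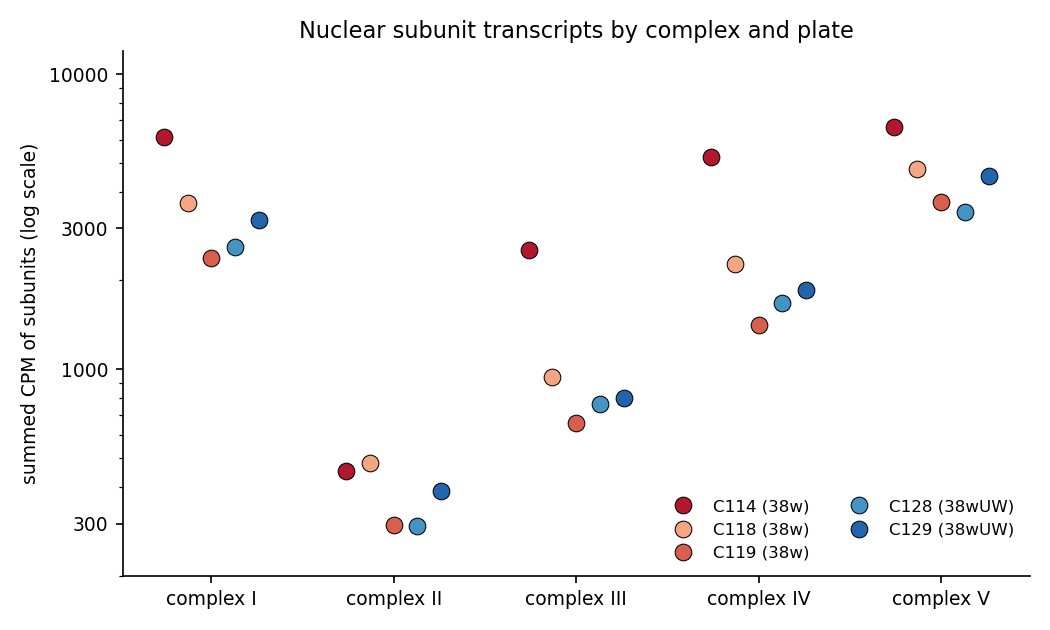
Summed CPM of the nuclear subunits of each complex (log scale) on the 5 plates, 3 of 38w (red shades) and 2 of 38wUW (blue shades), 1 point per plate. C114 is the highest point in complexes I, III, IV and V, and C119 of the same group is the lowest in complexes I, III and IV.

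Between groups, complex I summed to 4030 ± 2331 CPM (SD, n = 2) in 38w and 2894 ± 425 CPM in 38wUW, complex II to 378 ± 115 against 341 ± 66.8 CPM, and complex III to 1458 ± 1132 against 781 ± 27.9 CPM. Complex IV summed to 3060.2 ± 2330.5 against 1762 ± 123 CPM and complex V to 5004 ± 1848 against 3954 ± 774 CPM. The SD of 38w was above the difference of the means for every complex. The differences of the mean log2 sums were 0.35, 0.13, 0.64, 0.55 and 0.30 for complexes I to V. A two-sided exact permutation test of the 4 values gave p = 0.667 for complexes II and V and p = 1 for the others, and the smallest p that 2 against 2 allows is 0.33. Without RepI all 5 differences turned, to -0.27, -0.19, -0.25, -0.32 and -0.08.

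The batch tags of the labels pair the plates across groups, and the within-batch values were unlike each other. C114 against C128 gave log2 ratios of the sums of 1.24 for complex I, 0.63 for complex II, 1.74 for complex III, 1.64 for complex IV and 0.96 for complex V. C118 with C119 against C129 gave -0.26, -0.20, -0.15, -0.20 and -0.19. The alternative batch tag exchanges C128 and C129. C114 against C129 then gave 0.94, 0.22, 1.67, 1.5 and 0.56, and C118 with C119 against C128 gave 0.04, 0.20, -0.08, -0.06 and 0.21. Under either tag the ratio of every complex was larger in the batch that holds C114. For complex II under the alternative tag the values were close, 0.22 against 0.20. The plates of RepI differ within 1 replicate. Between replicates, which share no plate, plate and replicate cannot be told apart.

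Gene by gene, no member differed between the groups past the threshold. Of the 92 members, 91 had enough reads to be tested (Atp5o-I did not), and 0 of 91 had an adjusted p under 0.05 in edgeR's quasi-likelihood test on counts summed per replicate, as did 0% of the 11760 genes tested. The lowest adjusted p among the members was 0.617. At an unadjusted p under 0.05, 22 members (24.2%) were higher in 38w, against 4.29% of all genes, and 0 were lower, against 3.78%. DESeq2 on the same sums also called 0 members, against 0.578% of all genes, with 34 members at an unadjusted p under 0.05 in the higher direction, against 7.86% of all genes. The log2 fold changes of 79 of 91 members lay above 0 (86.8%, against 53.4% of all genes). Their median was 1.47, against 0.12 over all genes tested. The error set beside it, 0.978, was not taken from the fold changes. It came from the spread of the members' median log2 CPM, 7.48 and 5.57 in RepI and RepL and 5.66 and 5.26 in RepM and RepN. These fold changes include edgeR's TMM factors, which were 0.906 and 0.929 in RepI and RepL and 1.08 and 1.10 in RepM and RepN, so they lie above the ratios of the printed CPM. Scaled by library totals alone, as CPM is, 71 of 91 lay above 0 (78.0%, against 46% of all genes), and the median was 1.21, against -0.13 over all genes. In CPM, both 38w replicates lay above both 38wUW replicates for 15 members (16.5%, against 12.6% of all genes) and below both for 4, Cox7b, Ndufa5, Sdha and Uqcrb (4.40%, against 26.2%). With the TMM factors these counts were 28 (30.8%, against 17.7%) and 2 (2.2%, against 20.8%). When the 5 plates were compared in place of the replicates, all 3 plates of 38w lay above both plates of 38wUW for only 3 members, Ndufb2, Ndufc1 and Atp5c1 (3.30%, against 3.87% of all genes), and below both for Ndufa5 alone (1.10%, against 17.1%).

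The replicates of 38w decided these values. With RepI taken from plate C118 alone the median fell to 0.26 (0.03 over all genes), and without RepI to 0.12 (-0.15 over all genes), with 0 members called in either fit (against 0% and 1.38% of all genes). With the batch tag or its alternative as a block, 0 members were called as well, against 0.0425% and 0.0085% of all genes. Without RepL, 43 of 92 members were called, all higher in 38w, against 6.35% of all genes called higher, and the median was 2.2. In that fit RepI is alone in its group and is assumed to vary like the 38wUW replicates, and most of its reads are from C114.

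**Figure D2:**
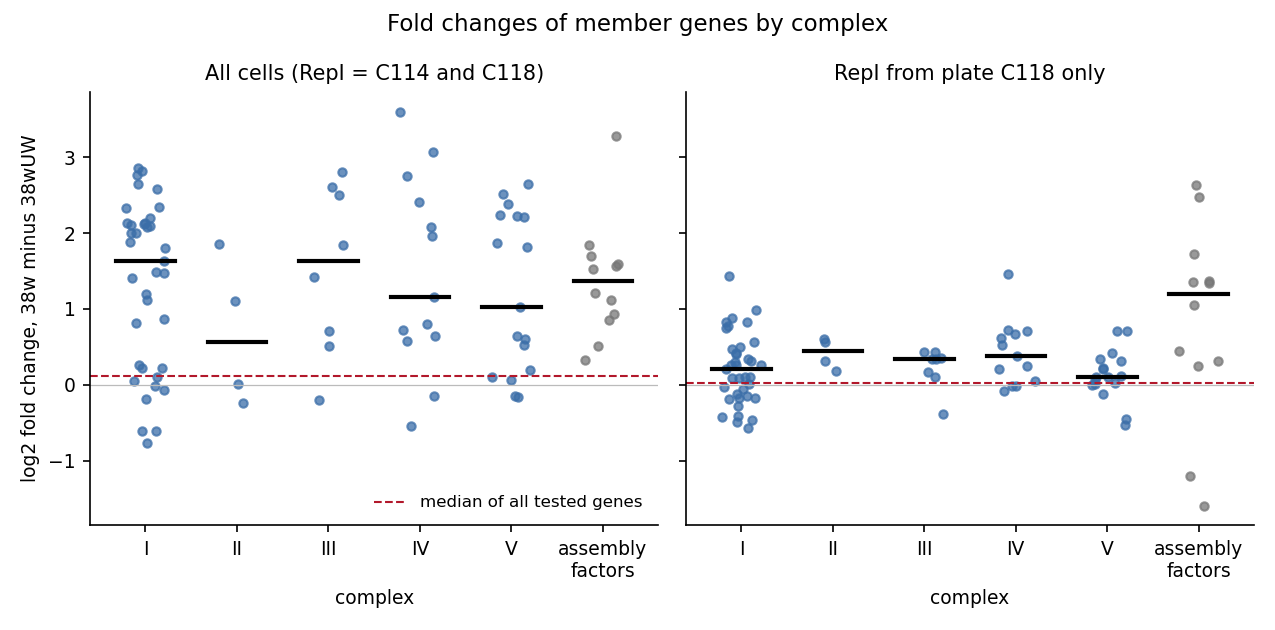
Log2 fold change (38w minus 38wUW) of each tested subunit by complex, and of the 12 assembly factors, with all cells (left) and with RepI taken from plate C118 only (right). Black bars are medians, and the dashed line is the median of all tested genes. In complex I the median falls from 1.64 to 0.21, in complex III from 1.63 to 0.34, and in complex IV from 1.16 to 0.37. In complex II the median falls from 0.56 to 0.44 and in complex V from 1.03 to 0.11.

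In complex I, which takes electrons from NADH, 31 of 37 subunits had a log2 fold change above 0, with a median of 1.64 and a range of -0.77 to 2.85. The 7 core subunits that carry the redox centres and the quinone site had a median of 2.01 and the 30 accessory subunits a median of 1.56. Ndufs1, the iron-sulfur subunit at the entry of the electron path, lay at the low end. It had 12.6 CPM on C114 and 40.1 CPM on C118, and 65.9, 62.1 and 106 CPM in RepL, RepM and RepN (log2 fold change -0.77 ± 0.91 SE, adjusted p = 0.827). Its level on C114 was the lowest of the 5 plates. Ndufv1, the flavoprotein subunit that binds NADH, had 121 CPM on C114 but 12.8 CPM on C118, and 22.4, 26.0 and 8.88 CPM in RepL, RepM and RepN (2.09 ± 1.01, adjusted p = 0.625). Ndufs7, which lines the quinone-binding site, had 163 CPM on C114 and 16.3 CPM on C118, and lay between 11.2 and 32.5 CPM in the other replicates, with a log2 fold change of 2.21 ± 1.0. Leaving C114 aside, Ndufv1 and Ndufs7 overlapped between the groups.

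The accessory subunits of complex I divided the same way. Ndufb10, a subunit of the membrane arm, had 349 CPM on C114, 14.0 CPM on C118, 43.4 CPM in RepL, 34.4 CPM in RepM and 20.8 CPM in RepN (2.85 ± 1.02, adjusted p = 0.617). Ndufa2, a subunit of the matrix arm, had 192 CPM on C114 and 10.5 CPM on C118, and 19.0, 21.7 and 8.5 CPM in RepL, RepM and RepN (2.83 ± 1.08, adjusted p = 0.617). For both, C114 was the highest plate and the others overlapped between the groups. Ndufa5, another accessory subunit of the matrix arm, had 125 CPM on C114, 141 CPM on C118, 55.7 CPM in RepL, 179 CPM in RepM and 155 CPM in RepN (-0.61 ± 0.85, adjusted p = 0.851). It was the only subunit of complex I for which all 3 plates of 38w lay below both plates of 38wUW. Over the whole complex, 23 subunits (62.2%) were more than 2-fold higher on C114 than on C118, against 35.2% of all genes tested, and 6 (16.2%) were more than 2-fold lower, against 31.2%.

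Complex II, the succinate dehydrogenase shared with the citric acid cycle, had the smallest median log2 fold change with all cells, 0.56 over its 4 subunits. With RepI from C118 alone its median was the largest of the 5 complexes, at 0.44 against 0.11 to 0.37. Sdha, the flavoprotein that oxidises succinate, had 94.2 CPM on C114 and 223 CPM on C118, and 100.8, 125 and 131 CPM in RepL, RepM and RepN (0.02 ± 0.82, adjusted p = 0.996, and -0.23 by library totals alone). Sdhd, a membrane anchor, had 70.1 and 138 CPM on the plates of RepI and 86.5, 85.2 and 152 CPM in the other replicates (-0.24 ± 0.83, adjusted p = 0.947). For both, C114 was the lowest of the 5 plates. The iron-sulfur subunit Sdhb had 221 CPM on C114 and 109 CPM on C118, and 95.2, 67.8 and 97.2 CPM in the others (1.10 ± 0.85, adjusted p = 0.733). The other anchor, Sdhc, had 68.7 CPM on C114, 11 CPM on C118, and 14.1, 16.3 and 7.80 CPM in the others (1.85 ± 1.0, adjusted p = 0.652). The 2 membrane anchors, which form a pair in the enzyme, thus lay in opposite orders on the 2 plates of RepI.

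Complex III passes electrons from ubiquinol to cytochrome c. Uqcrc1 and Uqcrc2, its paired core proteins, had unlike levels on the plates. Uqcrc1 had 671 CPM on C114, 25.0 CPM on C118, 104 CPM in RepL, 82.8 CPM in RepM and 30.2 CPM in RepN (2.80 ± 1.04, adjusted p = 0.617). Uqcrc2 had 234 CPM on C114, 156 CPM on C118, and 77.1, 90.8 and 159 CPM in the others (0.51 ± 0.87, adjusted p = 0.882). Uqcrfs1, the Rieske iron-sulfur protein, had 217 CPM on C114, 138 CPM on C118, and 92.1, 98.5 and 117.6 CPM in the others (0.71 ± 0.85, adjusted p = 0.832). Its 38w replicates lay on either side of both 38wUW replicates. Uqcr11, a small accessory subunit, had 302 CPM on C114, 12.2 CPM on C118, and 39.3, 43.3 and 13.4 CPM in the others (2.61 ± 1.04). The accessory subunit Uqcrb was lowest on C114, with 195 CPM there, 458 CPM on C118, and 246, 315 and 354 CPM in the others (-0.21 ± 0.86, adjusted p = 0.957).

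In complex IV, cytochrome c oxidase, the subunits that were high on C114 were led by Cox4i1. This widely expressed isoform of subunit 4 (GRCm38, chr8:120668222-120674207, plus strand) had 1782 CPM on C114 (95% Poisson interval 1753 to 1812, counting error only), 64.5 CPM on C118 (53.1 to 77.7), 163 CPM in RepL, 155 CPM in RepM and 78.3 CPM in RepN. It took 34.1% of the summed CPM of complex IV on C114 and 2.84% to 11.5% on the other plates. Its log2 fold change was 3.08 ± 1.16 (adjusted p = 0.617) and 0.20 with RepI from C118 alone. Cox5b, Cox6a1 and Cox8a, further nuclear subunits around the mitochondrially encoded core, had 528, 248 and 402 CPM on C114 and 44.2, 23.3 and 26.2 CPM on C118 (log2 fold changes 2.09, 2.76 and 2.42). Cox5a and Cox7a2 differed less, with 310.0 and 204 CPM on C114 and 258 and 203 CPM on C118 (0.80 and 0.72). Cox7b was lowest on C114, with 194 CPM there, 454 CPM on C118, and 273, 333 and 340.2 CPM in RepL, RepM and RepN (-0.15 ± 0.86, adjusted p = 0.970). Cox7a2l, which links complexes III and IV in supercomplexes, had 381 CPM on C114, 127 CPM on C118, and 112, 107 and 132 CPM in the others (1.16 ± 0.89). The muscle isoforms Cox6a2, Cox7a1 and Cox8b, and Cox4i2, also fit the symbol rule but are not in the count table.

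Ndufa4 and Ndufa4l2 are paralogues that are placed with complex IV, the latter known as a hypoxia-inducible gene. Ndufa4 had 337 CPM on C114, 624 CPM on C118, 172 CPM in RepL, 327 CPM in RepM and 653 CPM in RepN (-0.55 ± 0.93, adjusted p = 0.880). Ndufa4l2 had 112 CPM on C114, 5.23 CPM on C118, 20.7 CPM in RepL, 10.2 CPM in RepM and 1.08 CPM in RepN. Its log2 fold change of 3.6 ± 1.19 was the largest of the members in this fit (adjusted p = 0.617 in edgeR and 0.0939 in DESeq2), and both 38w replicates lay above both 38wUW replicates. It was 2.12 without RepI and 1.46 with RepI from C118, where C118 lay between C128 and C129. In cells thinned to 20000 reads, a read of Ndufa4l2 was found in 39.2% of 51 cells on C114 (Wilson 95% interval 27.0 to 52.9), 5.88% of 17 on C118 (1.05 to 27.0), 32.9% of 70 on C119 (23.0 to 44.5), 10.9% of 64 on C128 (5.40 to 20.9) and 1.33% of 75 on C129 (0.236 to 7.17). The shares on C114 and C119 were above both plates of 38wUW, and the share on C118 lay between them. Without thinning the shares were 60.4%, 29.4%, 44%, 13.4% and 9.64%.

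**Figure D3:**
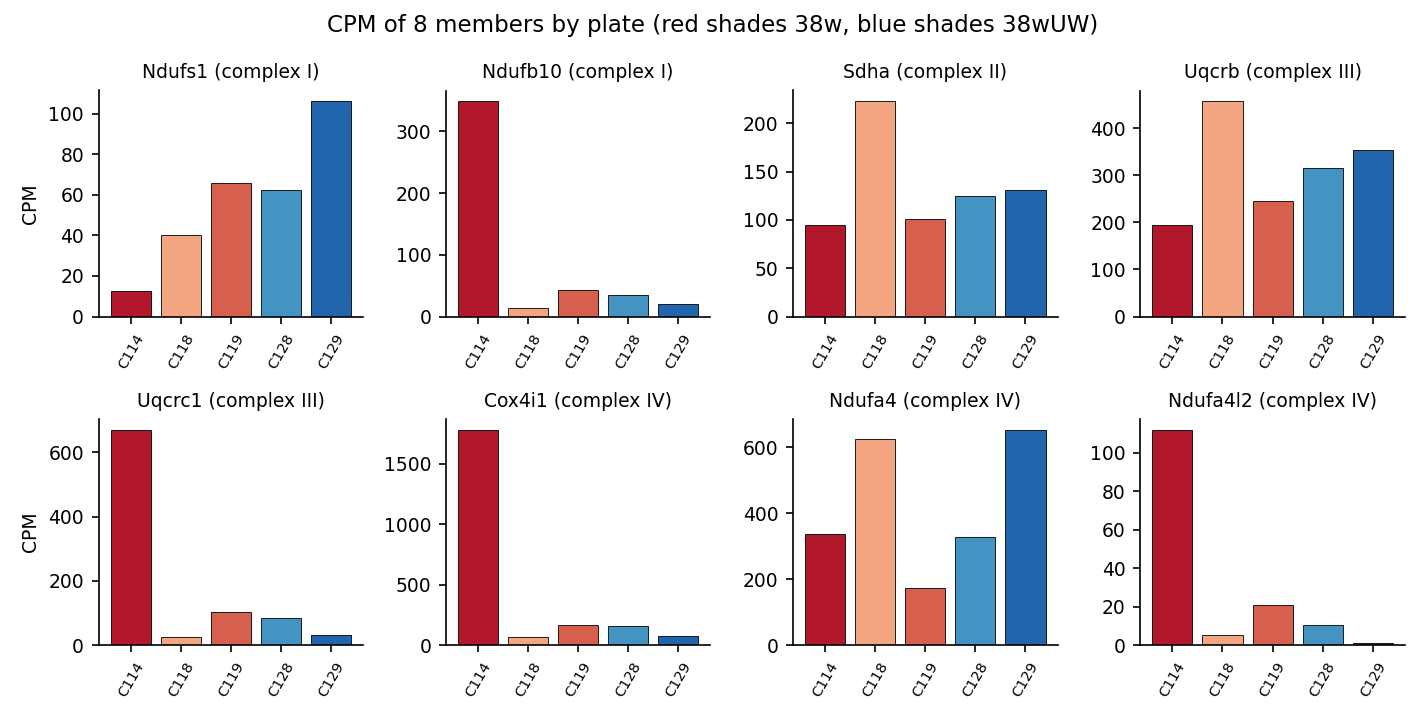
CPM of 8 members on each plate, with an axis of its own for each gene, starting at 0 (red shades 38w, blue shades 38wUW). Ndufb10, Uqcrc1, Cox4i1 and Ndufa4l2 are highest on C114, with 349, 671, 1782 and 112 CPM, while Ndufs1, Sdha and Uqcrb are lowest there.

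Complex V, the ATP synthase, had a median log2 fold change of 1.03 over its 17 tested subunits. Of the paired subunits of the catalytic head, the alpha subunit Atp5a1 had 600 CPM on C114, 352 CPM on C118, and 457, 384 and 387 CPM in RepL, RepM and RepN (0.64 ± 0.90). The beta subunit Atp5b had 764 CPM on C114, 204 CPM on C118, and 243, 280.3 and 250.0 CPM in the others (1.03 ± 0.93). The adjusted p-values were 0.852 and 0.777. Atp5d, the delta subunit of the central stalk, had 403 CPM on C114, 19.8 CPM on C118, and 51.7, 61.4 and 19.5 CPM in the others (2.51 ± 1.04, adjusted p = 0.617). Atp5o-II, 1 of 2 rows into which the table splits the stator subunit OSCP, had 440.3 CPM on C114 and 32 CPM on C118 (2.65 ± 1.08). The other row, Atp5o-I, was between 0.172 and 1.74 CPM, and how the reads were divided between them is uncertain. The membrane subunits Atp5l and Atp5mpl had 592 and 128.9 CPM on C114 and 1106 and 86.6 CPM on C118 (-0.14 ± 0.94 and -0.16 ± 0.91).

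The 3 Atp5g genes of complex V encode the same mature c subunit of the rotor ring, and they did not follow each other. Atp5g1 had 309.8 CPM on C114, 26.8 CPM on C118, and 43.0, 48.2 and 28.9 CPM in RepL, RepM and RepN (2.23 ± 0.98), and Atp5g2 had 346 CPM on C114, 37.8 CPM on C118, and 39.6, 50.6 and 34.9 CPM in the others (2.21 ± 1.0). Atp5g3 had 771 CPM on C114, 787 CPM on C118, and 569, 516 and 886 CPM in the others (0.19 ± 0.95, adjusted p = 0.962, and -0.06 by library totals alone). In thinned cells, Atp5g1 had a read in 94.1% of cells on C114 and 32% to 58.8% on the other plates, and Atp5g2 in 92.2% and 40% to 57.8%. Atp5g3 had a read in 92.2% of cells on C114 and in 87.1% to 96.9% on the others. Without thinning, Atp5g1 was read in 65.3% to 100% of cells by plate, Atp5g2 in 70.6% to 98.1% and Atp5g3 in 93.3% to 100%, so all 3 were read in most cells of every plate.

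All 12 assembly factors, which build complexes I and II but are not part of them, had a log2 fold change above 0 (median 1.37, 0 called), and for 4 both 38w replicates lay above both 38wUW replicates in CPM (33.3%, against 12.6% of all genes), and for 5 with the TMM factors (41.7%, against 17.7%). They had few reads, 264 to 1239 of each over all cells. With RepI from C118 alone their median was 1.20 (range -1.59 to 2.63), and that of the subunits 0.22. That fit rests on few reads of C118. Ndufaf1 and Ndufaf6 had 0 reads there, Ndufaf3 and Sdhaf1 2 each, Ndufaf8 7 and Sdhaf2 9. The others had 34 to 289. Ndufaf6, a factor of complex I assembly, had 16.5 CPM on C114 and no read on C118. It had 17.2 CPM in RepL, 2.19 CPM in RepM and 1.55 CPM in RepN. Its log2 fold change was 3.29 ± 1.16 (unadjusted p = 0.012 and adjusted p = 0.617 in edgeR, adjusted p = 0.0643 in DESeq2). The fold change was 3.44 without RepI and 2.47 with RepI from C118. Sdhaf4, a factor that binds free Sdha, had 28.2 CPM on C114, 168 CPM on C118, 10.2 CPM in RepL, 10.8 CPM in RepM and 24.2 CPM in RepN (1.11 ± 1.0). Sdhaf3 was highest in RepL, with 89.8 CPM, against 8.12 CPM on C114, 19.8 CPM on C118, 5.12 CPM in RepM and 45.6 CPM in RepN (1.21 ± 1.13). Ndufaf6, Sdhaf4 and Sdhaf3 were chosen after their values were seen.

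The members that were high on C114 had transcripts richer in G and C. Transcript base composition could be had for 87 members and ranged from 39.5% to 63.2% (median 50.5%, against 49.7% over all genes tested), at a median length of 875 bases against 3046. Of the 43 members above their own median, 38 (88.4%) were more than 2-fold higher on C114 than on C118 and 0 were lower. Of the 44 at or below it, 13 (29.5%) were higher and 12 (27.3%) lower. Of all genes tested, not divided by G+C, 35.2% were higher and 31.2% lower. Over all 91 tested members, 52 (57.1%) were higher and 13 (14.3%) lower. Past 4-fold, 44 (48.4%) were higher and 2 (2.2%) lower, against 21.5% and 17.7% of all genes. Across members, G+C and the log2 ratio of C114 to C118 had a Spearman correlation of 0.732 (n = 87 genes, 0.575 over 11532 genes), a description over genes that share their libraries. The same correlation with the log2 fold change between groups was 0.642 (0.446 over all genes). It was -0.403 with RepI from C118 alone, and it was 0.517 between C128 and C129 of the same group. The fold changes were also corrected for G+C by a loess fit over all genes, a choice made after seeing the data. The members' median was then 1.21, against 0.109 over all genes tested, with 0 members called, against 0% of all genes. The members' SD went from 1.05 to 0.812, and that of all genes tested from 1.44 to 1.29. Plate C114 also had the highest ribosomal protein share and the lowest mitochondrial share of reads. With those genes left out of the totals, the sums on C114 over C118 were 1.66, 0.937, 2.68, 2.29 and 1.39 for complexes I to V. With all genes these ratios were 1.67, 0.942, 2.70, 2.30 and 1.39. The part of base composition or of either share in the members' levels was not tested.

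**Figure D4:**
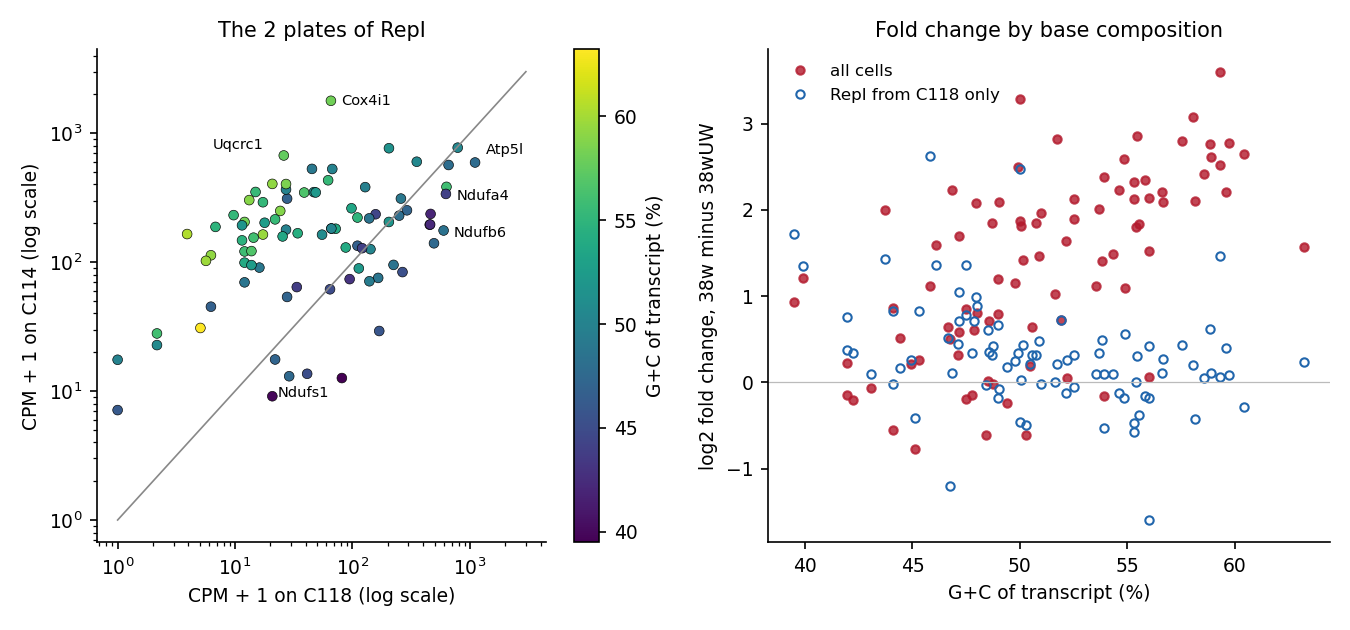
Left, CPM of 87 members on the 2 plates of RepI (both axes log scale, 1 CPM added, line of equal level), coloured by the G+C percentage of the transcript. Right, log2 fold change (38w minus 38wUW) against G+C with all cells and with RepI from C118 only. Members with more G+C lie above the line on C114, and the Spearman correlation on the right is 0.642 with all cells and -0.403 with C118 alone.

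The start of the coding sequence differs in base composition within the pairs shown of complexes I and III, and little within that of complex IV. Shown are the first 120 coding bases, from the GENCODE annotation of GRCm38, of a member near the low and one near the high end of log2 fold change in complexes I and III, and of the paralogues of complex IV, with G and C in capitals and T and A in lower case. Ndufs1 (chr1:63143596-63176833, minus strand) has 47 G or C in these bases and Ndufb10 (chr17:24722060-24724478, minus) has 76, Uqcrb (chr13:66900617-66905378, minus) has 53 and Uqcrc1 (chr9:108936633-108949623, plus) has 85, and Ndufa4 (chr6:11900292-11907497, minus) has 62 and Ndufa4l2 (chr10:127514967-127517154, plus) has 66. Over whole transcripts the G+C percentages were 45.1, 55.5, 42.2, 57.5, 44.1 and 59.3 in this order.
Ndufs1: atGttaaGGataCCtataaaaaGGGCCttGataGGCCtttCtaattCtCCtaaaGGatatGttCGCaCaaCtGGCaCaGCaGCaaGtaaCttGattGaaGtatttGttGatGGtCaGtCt
Ndufb10: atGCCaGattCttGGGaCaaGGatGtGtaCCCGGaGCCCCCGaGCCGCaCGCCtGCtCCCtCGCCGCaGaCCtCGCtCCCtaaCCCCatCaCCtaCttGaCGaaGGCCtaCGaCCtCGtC
Uqcrb: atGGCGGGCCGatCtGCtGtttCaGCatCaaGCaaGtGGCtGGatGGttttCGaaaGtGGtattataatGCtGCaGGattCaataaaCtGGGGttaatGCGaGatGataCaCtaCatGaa
Uqcrc1: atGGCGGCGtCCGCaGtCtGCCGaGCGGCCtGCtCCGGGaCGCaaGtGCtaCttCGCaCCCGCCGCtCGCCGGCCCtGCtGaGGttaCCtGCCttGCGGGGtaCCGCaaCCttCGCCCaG
Ndufa4: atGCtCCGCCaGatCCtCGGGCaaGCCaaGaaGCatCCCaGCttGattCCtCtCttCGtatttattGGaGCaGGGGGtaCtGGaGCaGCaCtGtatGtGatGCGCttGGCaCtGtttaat
Ndufa4l2: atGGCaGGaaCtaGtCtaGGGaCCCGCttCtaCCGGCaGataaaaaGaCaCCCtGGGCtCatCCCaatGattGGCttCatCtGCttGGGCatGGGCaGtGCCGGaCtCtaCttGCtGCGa

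Cell by cell, the higher level on C114 was spread over its cells. Cells with 20000 reads or more (138 of 145 in 38w and 139 of 165 in 38wUW) were thinned to that number. The subunits together had a median of 416 reads per cell on C114 (range 94 to 769), 225 on C118 (up to 510), 123.5 on C119 (10 to 495), 182 on C128 (79 to 307) and 191 on C129 (51 to 540). Complex IV had a median of 99 reads on C114 and of 26 to 41 on the others, and complex III a median of 44 against 9.5 to 20. Complex II had a median of 2 to 8 reads on every plate, so it was not read at all in 17 of 70 cells on C119. The number of different subunits read per cell had a median of 62 of 80 on C114 and of 37 to 47.5 on the others. Cox4i1 was read in all 51 thinned cells of C114, and in 65.3% to 87.1% of cells on the other plates.

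**Figure D5:**
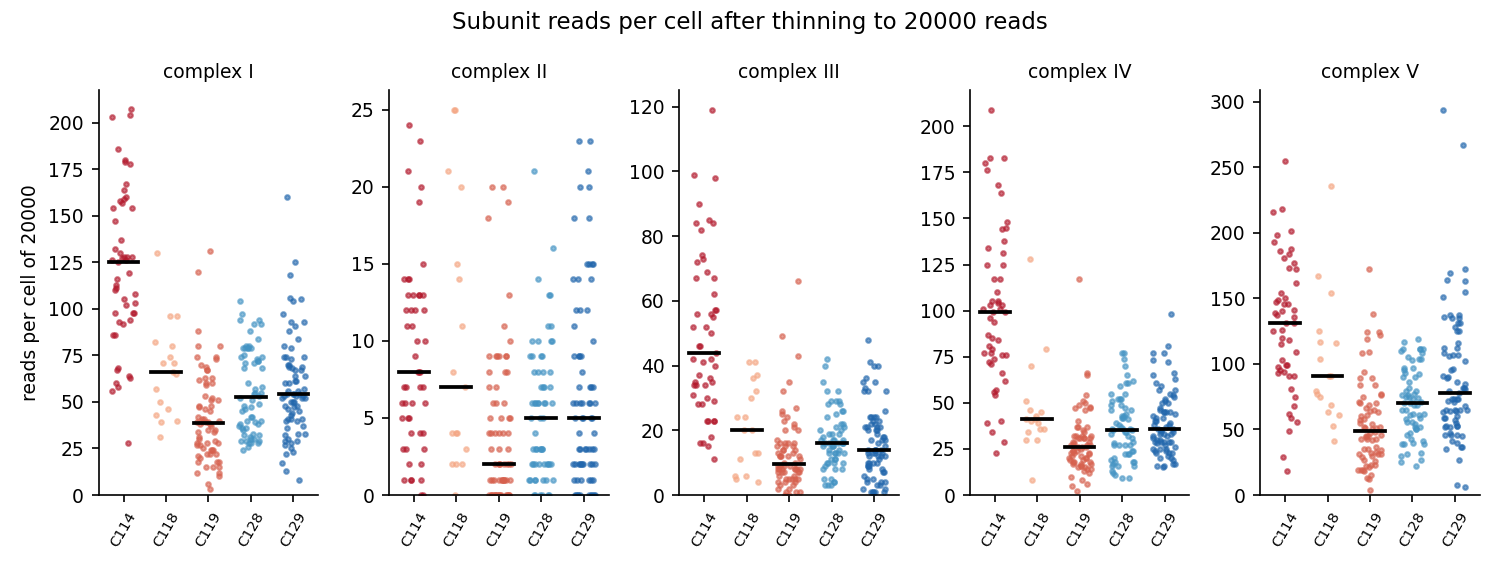
Reads of the nuclear subunits per cell after thinning to 20000 reads, by complex and plate, 1 point per cell (51, 17, 70, 64 and 75 cells), with the median as a bar and the axis from 0. In complex IV the median is 99 reads on C114 and 26 to 41 on the other plates.

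Within plates, complexes I, III, IV and V went together in single cells. The Spearman correlation of reads of complex I with complex V was 0.616, 0.525, 0.651, 0.559 and 0.518 on C114, C118, C119, C128 and C129, and that of complex III with complex IV was 0.635, 0.693, 0.392, 0.30 and 0.407. These are descriptions over 17 to 75 cells that share a plate and whose reads add up to the same total. Complex II, with few reads, had correlations between 0.059 and 0.552 with the other complexes, a range that overlapped that of the other pairs. The nuclear subunits went with the cytosolic ribosomal protein genes on every plate (0.418 to 0.692), but had no common sign with the mitochondrially encoded genes (-0.380 on C118 to 0.429 on C119).

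The mitochondrially encoded partners of these subunits did not show the excess on C114. The 13 genes summed to 74734 CPM on C114, 301041 CPM on C118, 165046 CPM in RepL, 220630 CPM in RepM and 236387 CPM in RepN, so C114 was the lowest plate. Of the 13, 0 were called, 7 lay above 0 and 6 below (median log2 fold change 0.12). The largest were mt-Co2 (0.39 ± 1.30) and mt-Nd1 (0.31 ± 1.29) and the smallest mt-Co3 (-0.91 ± 1.85) and mt-Co1 (-0.36 ± 1.58), subunits of complexes IV and I. Cyc1, the cytochrome c1 of complex III, had 187 CPM on C114, 10.5 CPM on C118, and 29.1, 21.2 and 15.3 CPM in the others (2.60 ± 0.99), whereas Cycs, cytochrome c itself, had 88.5, 67.5, 160, 173 and 97.5 CPM (0.09 ± 0.85).

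Of 40 other assembly factors, 38 were tested and 0 called, with 27 above 0 and a median of 0.57. The highest were Cox17, a copper chaperone of complex IV, at 3.48 ± 1.83, and Bcs1l, which inserts the Rieske protein, at 2.43 ± 1.37, and the lowest were Tmem126b and Lyrm7 at -1.56 ± 0.99 and -1.05 ± 1.32. Cox17 had 14084 CPM in RepL, against 59.0 CPM on C114, 43.9 CPM on C118, 1319 CPM in RepM and 160 CPM in RepN. It was read in 74 of 75 cells of C119, and no cell held more than 5.37% of these reads. Of 11 transcription factors and coactivators of mitochondrial genes, 0 were called, with 8 above 0 (median 0.36). Tfam, which packages and transcribes mitochondrial DNA, was highest at 1.16 ± 0.91, followed by Pprc1 at 0.67 ± 1.33. The coactivator Ppargc1a, with 0 to 5.95 CPM on any plate, was lowest at -3.51 ± 1.65 and Tfb2m, which helps to start mitochondrial transcription, next at -2.08 ± 0.93.

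Markers of cell states also moved with plate C114. The 5 basal keratinocyte markers summed to 26711 CPM there, against 1827 to 6633 CPM on the other plates. Krt14, a keratin of basal cells, made up 23571 CPM of that sum, while the integrin Itga6 was lowest on C114, with 70.3 CPM against 171 to 362 CPM. The 6 infundibulum and duct markers summed to 64025 CPM on C114, against 1817 to 26429 CPM, of which the protease inhibitor Cst6 made up 48126 CPM, while the transcription factor Gata6 was lowest there, with 14.7 CPM. The 6 bulge markers summed to 243 against 570 to 1472 CPM, although Krt24 was highest on C114, with 136 CPM against 5.48 to 48.3 CPM. The 6 interfollicular differentiation markers had their highest sum there, 22314 against 4260 to 16299 CPM. Of these, Krtdap (8566 CPM) and Mt4 (5281 CPM) were highest on C114. Krt1, Krt2 and Krt10 were highest on C118, and Lor had 0 CPM on C114. The 5 sebocyte markers found in the table had their lowest sum on C114, 224 against 329 to 801 CPM. Scd1 and Mgst1 were lowest on C114, whereas Fasn was highest there (41.5 CPM), and Dgat2 and Far2 were neither. These genes outside the members were named after their values were seen. Fewer cells of a state and less RNA per cell cannot be told apart in these sums, and the part of cell state in the members' levels was not tested.

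Promoters of these genes are known for sites of NRF-1, of ETS factors such as GABP and of YY1. RefSeq promoters on GRCm38.p6 (250 bases before to 50 after the start) were found for 76 of the 92 members, with 81 starts. The NRF-1 motif (10 letters) was found on either strand in 25.9% of member promoters and 4.6% of all 32851, the ETS letters CCGGAAG in 27.2% and 8.86%, and the YY1 letters AAGATGGCG in 9.88% and 1.4%. No 2 of these motifs overlapped in a member promoter. Members with the NRF-1 motif had a median log2 fold change of 1.21 (20 genes, -0.61 to 2.80), against 1.5 for the 56 without, those with the ETS letters 1.72 (22 genes) against 1.14, and those with the YY1 letters 1.69 (8 genes) against 1.31. The promoters of Uqcrc1 (chr9:108936398-108936697, plus strand) and Ndufa5 (chr6:24527641-24527940, minus strand) are shown because both hold the NRF-1 motif, in capitals, at positions 256 and 281 and at position 225 of the 300 bases, while the log2 fold changes of these genes, 2.80 and -0.61, were at opposite ends.
Uqcrc1: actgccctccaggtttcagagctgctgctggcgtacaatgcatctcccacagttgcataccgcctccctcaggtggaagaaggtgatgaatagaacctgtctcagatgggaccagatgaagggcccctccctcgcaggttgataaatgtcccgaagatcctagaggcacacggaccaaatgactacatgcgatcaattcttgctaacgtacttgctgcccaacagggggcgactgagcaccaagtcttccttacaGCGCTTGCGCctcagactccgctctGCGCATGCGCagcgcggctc
Ndufa5: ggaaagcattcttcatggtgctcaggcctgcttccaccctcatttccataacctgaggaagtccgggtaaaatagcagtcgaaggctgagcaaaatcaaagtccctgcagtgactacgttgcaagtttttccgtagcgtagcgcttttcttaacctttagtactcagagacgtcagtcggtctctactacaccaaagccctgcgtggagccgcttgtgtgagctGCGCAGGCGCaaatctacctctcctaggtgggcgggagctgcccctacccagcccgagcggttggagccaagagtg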

How the data were processed

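Single sorted cells were sequenced with a modified Smart-seq2 protocol without molecular identifiers, so reads are not independent molecules and intervals cover counting error only. The authors mapped reads with Salmon 0.13.1 to the mouse transcriptome (mm10, GRCm38, per the labels) and deposited estimated counts per gene and cell, of which 3.60% were not whole. Salmon divides reads among near-identical transcripts, so members with processed pseudogenes are uncertain to that extent.

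Counts were summed per replicate, rounded and tested with edgeR 4.0.16 (TMM, filterByExpr, quasi-likelihood F-test, Benjamini-Hochberg over all genes, threshold 0.05), and with DESeq2 1.42.0, in R 4.3.3. Nothing in the labels says that replicates are separate mice, so p-values measure the spread between these samples. CPM and overlaps of groups use library totals, and fold changes TMM factors. The SE after a fold change is its absolute value divided by the square root of the F statistic of its test. Median errors come from the replicate spread. Sums per complex were compared by exact permutation in scipy 1.17.1. Counts of C114 and C118 were compared by fold only, past 2, as 1 library each. The 15 samples with an unexplained name suffix (13 IDTILL on C114 and 2 MBULK) were kept, and leaving them out changed no call. On C114, 11 wells were named by 2 cells (Pearson r 0.635 at the median, 0.619 for any such pair of cells). The edgeR script was tested on simulated data with set folds and a fixed spread. That spread was not taken from these replicates, so the simulation does not show which changes could be found here. Base composition was taken from the GENCODE basic transcript with the longest coding sequence. Alternatives are given with their effects.

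Members, roles and gene lists were chosen with earlier results of these data known. Named members were the 2 highest and 2 lowest subunits per complex with a log2 CPM of at least 4, isoform sets, catalytic subunits and, for other lists, the 2 highest and 2 lowest genes. Members outside that rule are named as such or by count. Not every member that the rule names is reported here.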

Additional observations from a re-analysis of the deposited data

How the results depend on the processing

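With each replicate left out in turn, the number of members called ranged from 0 to 43, all 43 without RepL, and the members' median log2 fold change from 0.12 (without RepI) to 2.2 (without RepL), against 1.47 with all cells. The differences of the log2 sums then ranged from -0.27 to 0.98 for complex I, -0.19 to 0.44 for complex II, -0.25 to 1.53 for complex III, -0.32 to 1.42 for complex IV and -0.083 to 0.69 for complex V, each lowest without RepI. Complex II was -0.075 without RepM and -0.015 with equal weight per cell. Single members near 0 changed sign, with ranges of -0.12 to 0.61 for Atp5g3, -0.54 to 0.24 for Atp5l, -1.48 to 0.59 for Atp5mpl, -1.28 to 0.012 for Ndufa4, -0.11 to 0.21 for Sdha, -0.58 to 0.22 for Sdhd and -0.47 to 1.16 for Uqcrc2. Without RepL, some of the named members crossed the threshold, but RepI is then alone in its group, so they are not counted here. Part of the named members were also chosen for the highest fold changes in these same data. In that fit the median over all genes was -0.22, against 2.2 for the members.

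With RepI from C118 alone the median was 0.26, Atp5l 0.34, Cox5b -0.077, Cox7b 0.37, Sdhd 0.18 and Uqcrb 0.34. With RepI from C114 alone Atp5mpl was 0.052 and Sdha -0.058. With plates as units Atp5l was 0.26, Atp5mpl 0.050, Cox7b 0.16, Sdhd 0.028 and Uqcrb 0.14. With equal weight per cell Atp5l was 0.16, Atp5mpl 0.21, Sdhd 0.041 and Uqcrb 0.11. With cells thinned to 20000 reads Atp5l was 0.072, Atp5mpl 0.20 and Uqcrb 0.055. With the G+C correction, added after seeing the data, Atp5l was 0.20, Cox7b 0.57, Ndufa4 0.22 and Uqcrb 0.52. With library totals in place of TMM factors, also added then, Sdha was -0.23 and Atp5g3 -0.063. With either batch tag as a replicate block Atp5l was 0.023, the members' median was 1.32, and 0 members were called. Past 4-fold, 44 members (48.4%) were higher on C114 and 2 (2.2%) on C118, against 21.5% and 17.7% of all genes. The cause of these shifts was not tested.

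The other values kept their direction and side of the threshold. For single members 609 values did so, for sums of complexes 68 and for counts and medians 40, also with DESeq2 size factors, without a filter on low counts, without ribosomal protein and mitochondrially encoded genes, and without the suffixed cells. Another scaling moved the median of all genes from 0.12 to 0.19 (DESeq2 size factors) or -0.13 (library totals). Shares of cells with a read moved by more than their interval in 36 of 50 cases when cells were not thinned. The groups share no replicate number, so the batch tags were the only pairing fitted. The limits are 2 replicates per group, 1 plate for 3 of the 4 replicates, and the base composition and ribosomal share of C114.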
